A study of Danio rerio with 48 samples.

Results

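The genes described here build the DNA replication machinery, drive entry into S phase or carry out mitosis. They were chosen by name from a list of 45 cell cycle genes, without a threshold on expression. These genes and the other lists used below were chosen with earlier results of these data known. The table of read counts held 44 of them among its 25377 genes, and the listed inner centromere gene incenp had no row under that name. Of these, 15 act in replication, 4 are cyclins or kinases of the passage from G1 into S phase, and 25 act from late S phase to the end of mitosis. All 44 passed the filter on low counts and were tested together with the other genes, 20021 in all.

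The study measured polyadenylated RNA in the heads of zebrafish larvae exposed to perfluorooctane sulfonic acid (PFOS), a persistent perfluorinated surfactant, and asked which early changes accompany altered swimming in light and dark. Each library came from a pool of 15 heads, cut in front of the swim bladder, of a mixed wild-type line into which AB or Tupfel long fin fish are crossed. Heads were taken at 5 or 4 days post fertilization (dpf) after vehicle or 0.88, 1.57 or 2.8 µM PFOS, with 6 pools in each of the 8 groups and 48 libraries in all. Every group, vehicle included, was kept in 0.4% dimethyl sulfoxide (DMSO), and solutions were renewed daily until collection. Larvae collected at 5 dpf had therefore also spent longer in PFOS or DMSO, so age, length of exposure and day of collection cannot be told apart. The labels do not say whether pools came from separate clutches, and p-values measure only the spread between these pools.

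Cells copy their DNA in S phase and separate the copies in mitosis, and the transcripts needed for each step are made in separate waves. In mammalian cells the replication genes and cyclin E are switched on by E2F factors before S phase, and the mitotic genes later, by MuvB complexes with B-Myb and FoxM1. In the larval zebrafish head, dividing cells are found in the ventricular zones of the brain and at the ciliary margin of the retina.

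Total counts ran from 14475198 to 28926584 per library. The lowest mean count of a member was 11 per library and the highest was 9183.1. Neuron markers were present in every library, and their list averaged 6.26 to 7.06 on the log2 CPM scale, where CPM are counts scaled to the library's total. Their presence cannot tell heads from larger parts of a larva. Markers of the exocrine pancreas, an abdominal organ, averaged up to 7.47 log2 CPM in a library at 5 dpf and up to 0.62 at 4 dpf. When each library was correlated with those of its own age across all 4 concentrations, 3 stood apart by a low median. Replicates H of 0.88 µM and D of 1.57 µM at 5 dpf had 0.915 and 0.941, replicate A of 2.8 µM at 4 dpf had 0.922, and the next lowest library had 0.959. Some results that rest on them are given with and without them, and all others are given with them only. Levels were not compared between genes, since no transcript lengths were used here.

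The mitosis members were lower at 5 dpf than at 4 dpf and the 15 replication members as a class were not. The mean log2 CPM over the 25 mitosis members was 3.15 to 3.89 with a median of 3.55 in the 24 libraries at 5 dpf, against 3.99 to 4.71 with a median of 4.40 in the 24 libraries at 4 dpf. Every library at 5 dpf lay below every library at 4 dpf. Over the 15 replication members the same measure was 4.59 to 5.86 with a median of 4.93 at 5 dpf, against 4.57 to 5.42 with a median of 5.02 at 4 dpf, and the ages overlapped throughout. A wider list of 47 other replication genes, described below, had medians of 2.62 at 5 dpf and 2.88 at 4 dpf on this measure. The difference between the member classes, mitosis minus replication, was -2.52 to -1.06 log2 units at 5 dpf and -0.88 to -0.50 at 4 dpf. Without the 3 libraries with low correlations it was -1.83 to -1.06 at 5 dpf and -0.83 to -0.50 at 4 dpf. In bulk heads, fewer dividing cells and less of these transcripts per cell cannot be told apart.

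**Figure D1:**
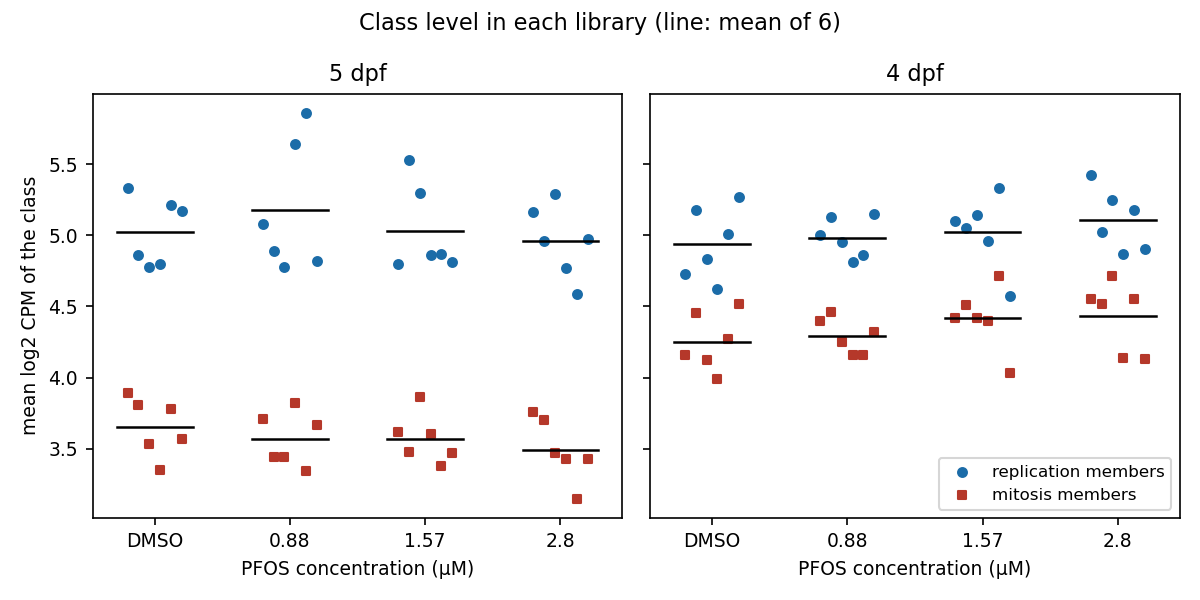
Mean log2 CPM of the 15 replication members (blue circles) and the 25 mitosis members (red squares) in each of the 48 libraries, by µM PFOS, with 5 dpf in the left panel and 4 dpf in the right one; black lines are means of 6 libraries. The mitosis level stays at or below 3.89 at 5 dpf and at or above 3.99 at 4 dpf, while the replication levels of the ages overlap.

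With the age effect averaged over the 4 concentrations, 24 of the 25 mitosis members fell at 5 dpf and none rose, in edgeR's quasi-likelihood test with Benjamini-Hochberg adjustment over all genes (threshold 0.05). Among all genes tested 43.3% passed the same test, 20.5% lower and 22.8% higher at 5 dpf. The median log2 fold change of the mitosis members was -0.78, with a range of -1.37 to -0.37, beside -0.00 over all genes. The member that did not pass was aurkb, the kinase of the chromosomal passenger complex, at -0.37 ± 0.21 (SE; edgeR adjusted p = 0.0952). Without the 3 libraries with low correlations all 25 mitosis members were called lower. The same was true of limma-trend on quantile normalized values.

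The members furthest from 0 were cdc20, kif11 and cenpf. For cdc20 (chr2:19217586-19234470), the activator of the anaphase-promoting complex, the lowest, median and highest levels were 0.203, 1.41 and 3.33 CPM at 5 dpf, against 2.43, 3.77 and 7.12 CPM at 4 dpf. The ages overlapped only between 2.43 and 3.33 CPM. Its level was 2.58-fold lower at 5 dpf (log2 fold change -1.37 ± 0.16, SE; edgeR adjusted p = 6.6e-10). The motor kif11 (chr17:19481049-19497007), which pushes the spindle poles apart, stood at 7.09, 15 and 29 CPM at 5 dpf and at 20, 32.3 and 55.4 CPM at 4 dpf, and was 2.23-fold lower (-1.16 ± 0.13, edgeR adjusted p = 6.64e-10). The kinetochore protein gene cenpf fell by 1.01 ± 0.15 on the log2 scale (edgeR adjusted p = 2.02e-07).

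The smallest p-value of any member belonged to plk1 (chr1:9153141-9161844), the Polo-like kinase that acts at centrosomes, kinetochores and in cytokinesis. At 5 dpf its lowest, median and highest levels were 19.4, 22.7 and 27.9 CPM in DMSO, 17.8, 22.1 and 29.2 CPM with 0.88 µM PFOS, 19.5, 22.9 and 34.9 CPM with 1.57 µM and 17.7, 23.9 and 29.8 CPM with 2.8 µM. At 4 dpf they were 33.8, 40.2 and 56.4 CPM in DMSO, 40, 44.4 and 48.4 CPM with 0.88 µM PFOS, 38.2, 46.4 and 62.5 CPM with 1.57 µM and 36.6, 52.9 and 67.6 CPM with 2.8 µM. In each concentration all 6 pools at 5 dpf lay below all 6 at 4 dpf. The gene was 1.99-fold lower at 5 dpf (log2 fold change -0.99 ± 0.08, SE; edgeR adjusted p = 2.64e-14).

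The markers most used for dividing cells followed. The Ki-67 gene mki67 (chr12:10366617-10381283), whose protein coats mitotic chromosomes, had a lowest, median and highest level of 28.4, 64.3 and 113.6 CPM at 5 dpf, against 79.1, 123.2 and 176.7 CPM at 4 dpf. Its ranges overlapped, and its log2 fold change was -0.92 ± 0.11 (SE; edgeR adjusted p = 9.3e-10). Topoisomerase II alpha, top2a (chr12:10706772-10740237), untangles sister DNA and lies on the same chromosome. It stood at 43.7, 57 and 72.1 CPM at 5 dpf and at 71.9, 94.7 and 143.0 CPM at 4 dpf. Its highest pool at 5 dpf lay just above its lowest pool at 4 dpf, and it fell by 0.78 ± 0.08 on the log2 scale (edgeR adjusted p = 3.27e-11).

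The mitotic cyclins and their kinase fell. For ccnb1 (chr5:54711027-54714790), cyclin B1, the lowest, median and highest levels were 11.8, 17.9 and 27.7 CPM at 5 dpf and 20, 33.9 and 48.8 CPM at 4 dpf. Its log2 fold change was -0.88 ± 0.10 (SE; edgeR adjusted p = 6.63e-10). Cyclin A2, ccna2, ran from 13.2 to 25.6 CPM at 5 dpf and from 19.3 to 43.6 CPM at 4 dpf, and changed by -0.74 ± 0.08 on the log2 scale (edgeR adjusted p = 1.64e-10). Their partner cdk1 (chr17:20923691-20929462) had 1.38, 3.09 and 9.53 CPM at 5 dpf and 2.4, 4.28 and 8.26 CPM at 4 dpf. Its ranges overlapped almost fully and its log2 fold change was -0.44 ± 0.14 (edgeR adjusted p = 0.00767). Within single concentrations cdk1 passed the test at 2.8 µM alone, at -0.92 ± 0.28 (edgeR adjusted p = 0.0215), and without the 3 libraries also at 1.57 µM, at -0.63.

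The other members that fell cover each stage of mitosis. The condensin genes smc2 and ncapg, which compact chromosomes, had log2 fold changes of -0.94 and -0.88. Those of the passenger complex genes cdca8 and birc5a, and of aurka, the centrosomal Aurora kinase, were -0.91, -0.82 and -0.86. The call of birc5a was made only in the average, as it passed in no single concentration. Its level was low, with medians of 0.652 CPM at 5 dpf and 1.14 CPM at 4 dpf. The spindle checkpoint kinases bub1 and ttk stood at -0.73 and -0.57, the spindle assembly factor tpx2 at -0.76, the cytokinesis motor kif23 at -0.79 and espl1, the separase that cuts cohesin, at -0.48. Beside the members, 49 of 57 other mitosis genes fell and none rose (20.5% and 22.8% of all genes), with a median of -0.64, including hmmr at -1.14, the condensin subunit ncaph at -0.91, the midzone protein prc1a at -0.78 and the cytokinetic ring protein anln at -0.75.

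**Figure D2:**
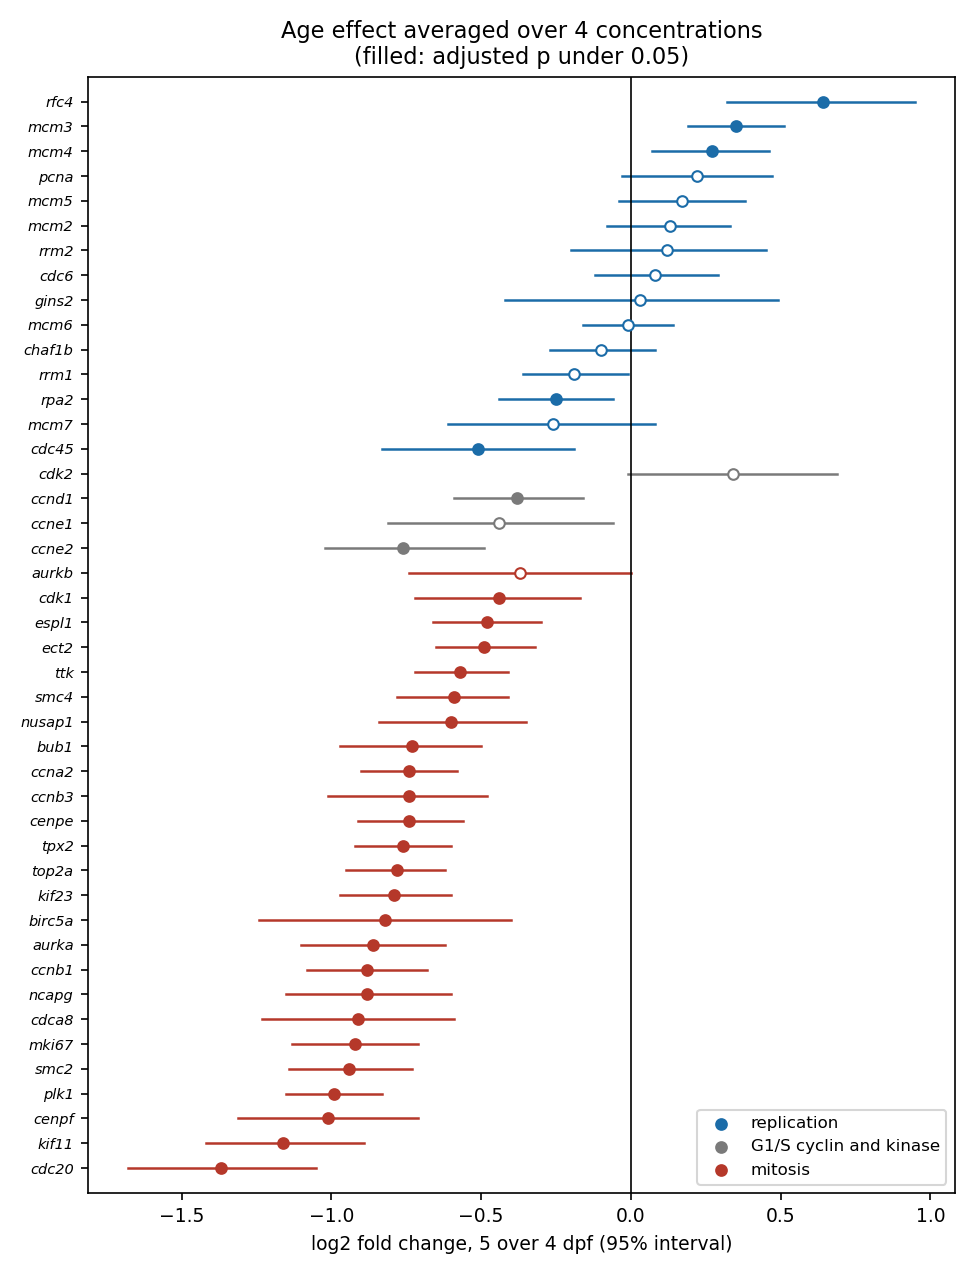
Log2 fold change of each member at 5 over 4 dpf, averaged over the 4 concentrations, with its 95% interval; rows are replication (blue), G1/S (grey) and mitosis (red) members, and filled points have an adjusted p under 0.05. The mitosis members lie between -1.37 and -0.37, while the replication members lie on both sides of 0, between -0.51 and 0.64.

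The age effect can be read in 4 comparisons that share no library, 1 per concentration. The mitosis members that fell numbered 13 of 25 in DMSO and 18, 21 and 23 at 0.88, 1.57 and 2.8 µM, beside 4.84%, 4.34%, 6.19% and 5.27% of all genes. Their median log2 fold changes were -0.63, -0.73, -0.85 and -0.92 in that order of concentration. Leaving out replicate D of DMSO at 4 dpf brought the members called in DMSO, all of them mitosis genes, to 7. In the 1.57 and 2.8 µM groups at least 17 members were called whichever library was left out. Fitting the 0.88 µM groups on their own, with the spread taken from 12 libraries, left 6 members called, against 19 in the fit over all groups. The same kind of fit called 16, 20 and 24 mitosis members in DMSO and at 1.57 and 2.8 µM. The shares of all genes called in these fits, or with a library left out, are not given here. Whether lost calls are particular to the members cannot be read from these counts.

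In every concentration 13 mitosis members fell, which 1.57% of all genes did. They were mki67, top2a, ccna2, ccnb1, plk1, cdc20, kif11, kif23, ttk, cenpe, tpx2, smc2 and smc4. Among them mki67 had log2 fold changes of -0.62, -0.84, -1.13 and -1.09 in DMSO and at 0.88, 1.57 and 2.8 µM, and cdc20 had -0.94, -1.23, -1.55 and -1.74. The groups at 5 dpf lay below those at 4 dpf without overlap for 3 mitosis members in DMSO (3.07% of all genes), 6 with 0.88 µM PFOS (1.02%), 11 with 1.57 µM (3.04%) and 13 with 2.8 µM (2.56%). Only top2a and plk1 did so in all 4 concentrations. No replication member did so in any, and of the G1/S members ccne2 did at 1.57 µM.

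Although the medians were lower at higher concentrations, no member passed the test of a different age effect at 2.8 µM and in DMSO, and neither did any other gene (0% of genes called). The smallest adjusted p of a member in that edgeR test was 0.948, and 1 member, the cyclin E gene ccne1, had an unadjusted p under 0.05, as did 765 genes in all, with a difference of -1.23 ± 0.53. The median difference was -0.37 log2 units over the mitosis members, -0.23 over the replication members and -0.06 over all genes. DESeq2 and limma-trend also called no member.

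**Figure D3:**
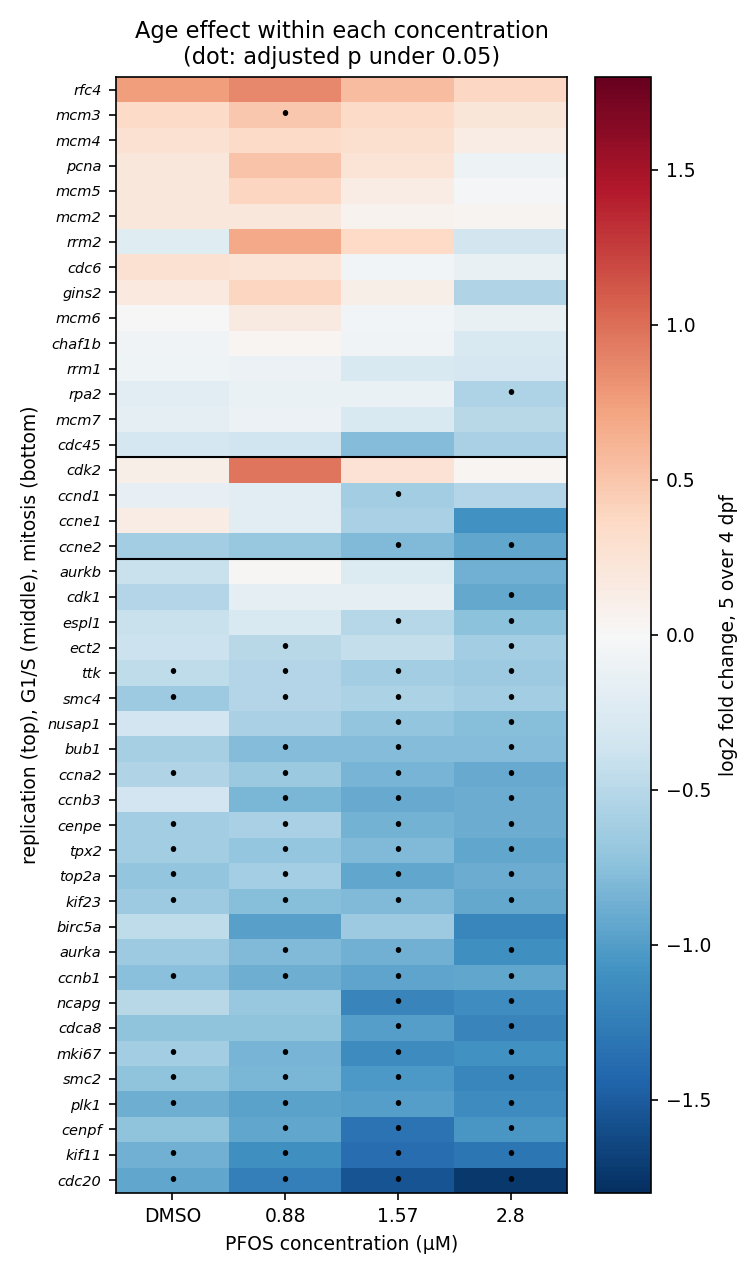
Log2 fold change at 5 over 4 dpf of each member (rows: replication, G1/S and mitosis from top to bottom) within DMSO and 0.88, 1.57 and 2.8 µM PFOS (columns); blue is lower at 5 dpf, red is higher, and dots mark an adjusted p under 0.05. In the mitosis block 24 of 25 members are blue in every column, with 13, 18, 21 and 23 dots, and the replication block holds 2 dots in all.

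Of the 15 replication members, averaged over concentrations, 3 rose at 5 dpf, 2 fell and 10 did not pass the test, numbers near the 22.8% of all genes that rose and the 20.5% that fell. Their median log2 fold change was 0.08, and the 95% interval of every one of the 15 lay within 1 log2 unit of 0. The members that rose were the clamp loader subunit rfc4 and the helicase subunits mcm3 and mcm4. For rfc4 (chr11:45426609-45435015) the lowest, median and highest levels were 8.25, 14.9 and 36.4 CPM at 5 dpf and 6.29, 11.6 and 25.8 CPM at 4 dpf. It was higher by 0.64 ± 0.16 on the log2 scale (SE; edgeR adjusted p = 0.000804), with widely overlapping ages.

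Of the 6 subunits of the MCM helicase, which unwinds DNA at the fork, only mcm3 and mcm4 passed the test. The level of mcm3 (chr20:34770197-34783744) was 79.7, 102.9 and 161.4 CPM at 5 dpf and 62.5, 83.2 and 107.8 CPM at 4 dpf, and the log2 fold change was 0.35 ± 0.08 (SE; edgeR adjusted p = 0.000308). For mcm4 it was 0.27 ± 0.10 (edgeR adjusted p = 0.0232), a call lost when any of 3 single libraries was left out, with values of 0.21 to 0.23. For mcm2 and mcm5 the log2 fold changes were 0.13 and 0.17 (edgeR adjusted p = 0.322 and 0.18). The value of mcm7 was -0.26 (edgeR adjusted p = 0.216), and it is uncertain, because its counts were fractional in 89.6% of libraries and its highest level, 1411.9 CPM, stood in replicate A of 2.8 µM at 4 dpf, a library with a low correlation. On chromosome 14 the annotated model of tmem107 spans both mcm7 and aurkb. The level of aurkb too was highest in that library, at 73.9 CPM. So were those of members elsewhere, such as bub1 at 91.1 CPM and tpx2 at 101.8 CPM. The level of tmem107 was highest, at 39.4 CPM, in replicate H of 0.88 µM at 5 dpf. A part of tmem107 in these values was not tested.

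The sliding clamp gene pcna (chr10:40821804-40826658), which holds polymerases on DNA, did not pass. Its lowest, median and highest levels were 48.3, 78.2 and 187.4 CPM at 5 dpf and 45.3, 64.8 and 109.3 CPM at 4 dpf, and the log2 fold change was 0.22 ± 0.12 (SE; edgeR adjusted p = 0.153). The ribonucleotide reductase subunit gene rrm2 (chr19:47564890-47571809), which supplies deoxynucleotides, had 14.7, 24.6 and 107.2 CPM at 5 dpf and 16.7, 25.5 and 41.4 CPM at 4 dpf. The levels of 107.2 and 95.8 CPM belonged to replicate H of 0.88 µM and replicate D of 1.57 µM at 5 dpf, and no other library exceeded 41.4 CPM. Its log2 fold change was 0.12 (edgeR adjusted p = 0.566) and that of rrm1 was -0.19 (edgeR adjusted p = 0.0724).

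Both replication members that fell act at the fork. The helicase cofactor cdc45 ran from 0.733 to 3.78 CPM at 5 dpf and from 1.1 to 5.26 CPM at 4 dpf, and its log2 fold change was -0.51 ± 0.16 (SE; edgeR adjusted p = 0.00806). The single-strand binding subunit rpa2 had -0.25 ± 0.09 (edgeR adjusted p = 0.0272), and was not called without the 3 libraries, at -0.20. Within single concentrations only mcm3 at 0.88 µM (0.49 ± 0.16, higher, edgeR adjusted p = 0.0299) and rpa2 at 2.8 µM (-0.56, lower, edgeR adjusted p = 0.0429) passed. Both calls were lost without the 3 libraries, at 0.41 and -0.47, while 1 replication member was then called higher in DMSO. Among all genes 9.34%, 8.41%, 8.98% and 7.1% rose in DMSO and at 0.88, 1.57 and 2.8 µM. Of the 15 replication members 4 had a log2 fold change below 0 in all 4 concentrations and 4 above 0, against 24 below and none above of the 25 mitosis members, and 27.6% below and 27.7% above of all genes.

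In a wider list of 47 replication genes that are not members, 23 fell, 4 rose and 20 did not pass, with a median of -0.23, where 20.5% of all genes fell and 22.8% rose. Those that fell included the ligase that seals Okazaki fragments, lig1, at -0.73, the histone mRNA binding protein slbp at -0.86, the licensing regulator dtl at -0.70 and the initiation factor mcm10 at -0.61. Those that rose were the clamp loader subunit rfc3 at 1.24, the origin recognition subunits orc4 and orc6 at 0.92 and 0.70, and rnaseh2a, which removes RNA from DNA, at 0.74.

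**Figure D4:**
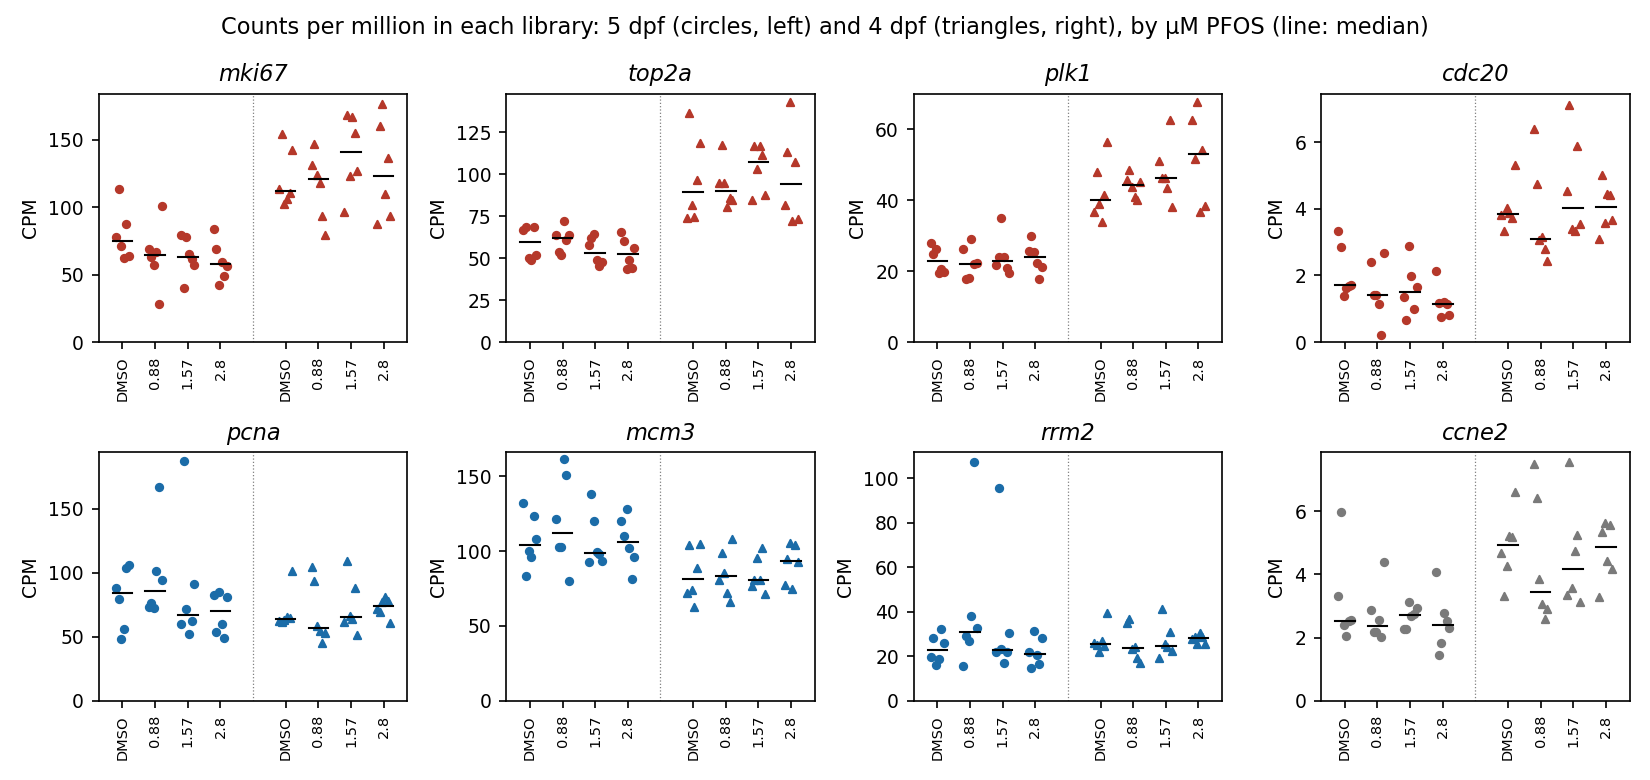
CPM of 4 mitosis members (mki67, top2a, plk1, cdc20), 3 replication members (pcna, mcm3, rrm2) and ccne2 in each of the 48 libraries, at 5 dpf (circles, left) and 4 dpf (triangles, right), by µM PFOS; lines are medians of 6. The mitosis genes sit lower at 5 dpf, pcna and rrm2 overlap between the ages, and the 2 rrm2 points at 107.2 and 95.8 CPM are single libraries at 5 dpf.

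Among the G1/S members, cyclin E2 and cyclin D1 fell averaged over concentrations and the other 2 did not pass. Of all genes 20.5% fell. For ccne2 (chr16:40575742-40586794), which with cdk2 opens S phase, the lowest, median and highest levels were 1.43, 2.54 and 5.99 CPM at 5 dpf and 2.58, 4.54 and 7.58 CPM at 4 dpf. Its ages overlapped, and its log2 fold change was -0.76 ± 0.13 (SE; edgeR adjusted p = 6.2e-06). Cyclin D1, ccnd1, which links growth signals to G1, ran from 40.6 to 107.0 CPM at 5 dpf and from 44.5 to 135.7 CPM at 4 dpf, at -0.38 ± 0.11 (edgeR adjusted p = 0.00379). The values of ccne1 and cdk2 were -0.44 and 0.34 (edgeR adjusted p = 0.053 and 0.114). Within single concentrations ccne2 was called lower at 1.57 and 2.8 µM and ccnd1 at 1.57 µM alone, beside 6.19% and 5.27% of all genes. Without the 3 libraries with low correlations, 0 G1/S members were called at 1.57 µM and 3 at 2.8 µM.

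Among regulators of these genes more fell than rose. Of 23 genes for E2F, MYB, FOXM and related factors, 12 fell and 2 rose, beside 20.5% and 22.8% of all genes. The activators foxm1 and mybl1 had log2 fold changes of -0.57 and -0.98, where mybl1 encodes A-Myb and not the B-Myb named above. The repressors e2f8 and e2f7 had -0.47 and -0.63, while mycn and rbl1 both stood at 0.29. Of 21 genes that restrain the cell cycle, 9 rose and 3 fell, beside 22.8% and 20.5% of all genes. Those that rose included the antiproliferative genes tob1b at 0.54, tob1a at 0.43 and btg1 at 0.42 and the stress gene gadd45ba at 0.67, and those that fell were ccng2 at -0.38, gadd45gb.1 at -0.50 and cdkn1ba, a p27 inhibitor gene, at -0.19.

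Some lists of cell type markers also differed between the ages, and their counts are to be read against the 20.5% of all genes that fell and the 22.8% that rose. Of 37 tested markers of neural and retinal progenitors, 19 fell and 4 rose, with a median of -0.20, and their mean level was 4.17 to 4.66 log2 CPM at 5 dpf against 4.34 to 5.21 at 4 dpf. Of 24 neuron markers 6 fell and 1 rose, the falls being near the share of all genes. All 14 markers of the exocrine pancreas, an abdominal organ, rose, and their mean level was -2.08 to 7.47 log2 CPM at 5 dpf against -2.50 to 0.62 at 4 dpf. Of 18 skeletal muscle markers 9 rose and 2 fell, and their mean level averaged 8.94 ± 0.46 log2 CPM at 5 dpf and 8.42 ± 0.44 at 4 dpf (SD, n = 24 each). Of 14 lens markers 7 rose and none fell, at 8.80 ± 0.51 and 8.42 ± 0.38. Of 16 epidermis markers 6 rose and 1 fell, and of 17 blood markers 4 rose and 4 fell. Of 38 ribosomal protein genes 13 rose and none fell. The highest replication levels, 5.86, 5.64 and 5.53 log2 CPM, stood in replicates H and G of 0.88 µM and D of 1.57 µM at 5 dpf. Replicate A of 2.8 µM at 4 dpf followed at 5.42. The same 4 had the highest ribosomal protein levels of the 48, and also the highest lens levels, at 9.58, 9.58, 9.66 and 9.41. In the same order their muscle levels were 9.67, 9.61, 9.63 and 9.41. Their TMM factors were 0.682, 0.823, 0.79 and 0.538, in a range of 0.538 to 1.43 over all libraries. The part of these markers in the changes of the members was not tested.

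No member passed the test for an effect of PFOS at either age. In edgeR none had an adjusted p under 0.05 in any of the 6 comparisons of a concentration with DMSO, where 0.0799% of all genes were called at 1.57 µM at 5 dpf and 0% in each of the other 5. DESeq2 and limma-trend called none either. At an unadjusted p under 0.05 the number of members at 0.88, 1.57 and 2.8 µM was 1, 0 and 2 of 44 at 5 dpf, where 1038, 1010 and 384 of the 20021 genes had one, and 1, 0 and 2 at 4 dpf, where 392, 390 and 1202 genes did. The linear trend per µM had 2 such members at 5 dpf (374 genes in all) and 0 at 4 dpf (1221 genes), with 0% of genes called at both ages.

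The intervals limit the size of a PFOS effect that these pools could hide. At 2.8 µM, 39 of 44 members at 5 dpf and 39 at 4 dpf had 95% intervals within 1 log2 unit of 0, and the median SE was 0.21 at both ages. For plk1 the log2 fold change was 0.04 (interval -0.28 to 0.35) at 5 dpf and 0.29 (-0.03 to 0.60) at 4 dpf. For mki67 it was -0.40 (-0.83 to 0.02) at 5 dpf and 0.07 (-0.36 to 0.49) at 4 dpf. For pcna it was -0.23 (-0.73 to 0.27) at 5 dpf and 0.07 (-0.43 to 0.57) at 4 dpf, and for mcm2 0.03 (-0.38 to 0.44) and 0.18 (-0.23 to 0.59).

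At 5 dpf the median log2 fold changes of the mitosis members were -0.02, -0.06 and -0.14 at 0.88, 1.57 and 2.8 µM, and those of the replication members 0.24, 0.04 and -0.02, beside medians over all genes of -0.00, 0.00 and -0.00. The replication level at 0.88 µM had a median of 4.99 log2 CPM over its pools, against 5.02 in DMSO. Its replicates H, a library with a low correlation, and G stood at 5.86 and 5.64. The members with the smallest p were ccne1 and cdc20 at 2.8 µM and rrm2 at 0.88 µM. For ccne1 the lowest, median and highest levels were 0.275, 0.404 and 0.525 CPM at 2.8 µM, against 0.482, 0.846 and 1.13 CPM in DMSO, at -0.98 ± 0.38 (SE; edgeR adjusted p = 0.992). For cdc20 they were 0.746, 1.16 and 2.14 CPM at 2.8 µM, against 1.37, 1.7 and 3.33 CPM in DMSO, at -0.79 ± 0.32 (edgeR adjusted p = 0.992). Both groups overlapped. The value of rrm2 at 0.88 µM, 0.82 ± 0.33 (edgeR adjusted p = 0.872), includes the library at 107.2 CPM.

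At 4 dpf the median log2 fold changes of the mitosis members were 0.04, 0.18 and 0.18 at 0.88, 1.57 and 2.8 µM, and those of the replication members 0.06, 0.10 and 0.18, beside 0.01, 0.01 and 0.03 over all genes. At 2.8 µM 24 of 25 mitosis members and 13 of 15 replication members had a value above 0, as did 10742 of the 20021 genes. Other lists stood above 0 in the same comparison, with 38 of 38 ribosomal protein genes (median 0.66), 20 of 21 cell cycle inhibitors (0.22), 17 of 18 muscle (0.36), 13 of 14 lens (0.29), 14 of 16 epidermis (0.38) and 15 of 17 blood markers (0.35), and their part in the members' values was not tested. The neuron markers had 9 of 24 above 0 (median -0.19). These values include replicate A of 2.8 µM, a library with a low correlation. Its ribosomal level was 10.58 log2 CPM, against a group median of 8.75 and a DMSO median of 8.48. Its inhibitor level was 3.53, against medians of 2.84 and 2.62, and its replication level 5.42, against 5.10 and 4.92. Its mitosis level was 4.55, against 4.53 and 4.22. The largest value of a member was that of birc5a, the survivin gene, with 1.09, 1.48 and 4.86 CPM at 2.8 µM against 0.63, 0.991 and 1.31 CPM in DMSO. It stood at 0.98 ± 0.41 (edgeR adjusted p = 0.748), and its level of 4.86 CPM was in replicate A, a library with a low correlation. The kinase gene aurka stood at 0.48 ± 0.23 (edgeR adjusted p = 0.748). Among the other cell cycle lists at 2.8 µM the smallest p was that of ccng1, a p53 target in mammals, at 0.78 ± 0.24 (edgeR adjusted p = 0.748).

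**Figure D5:**
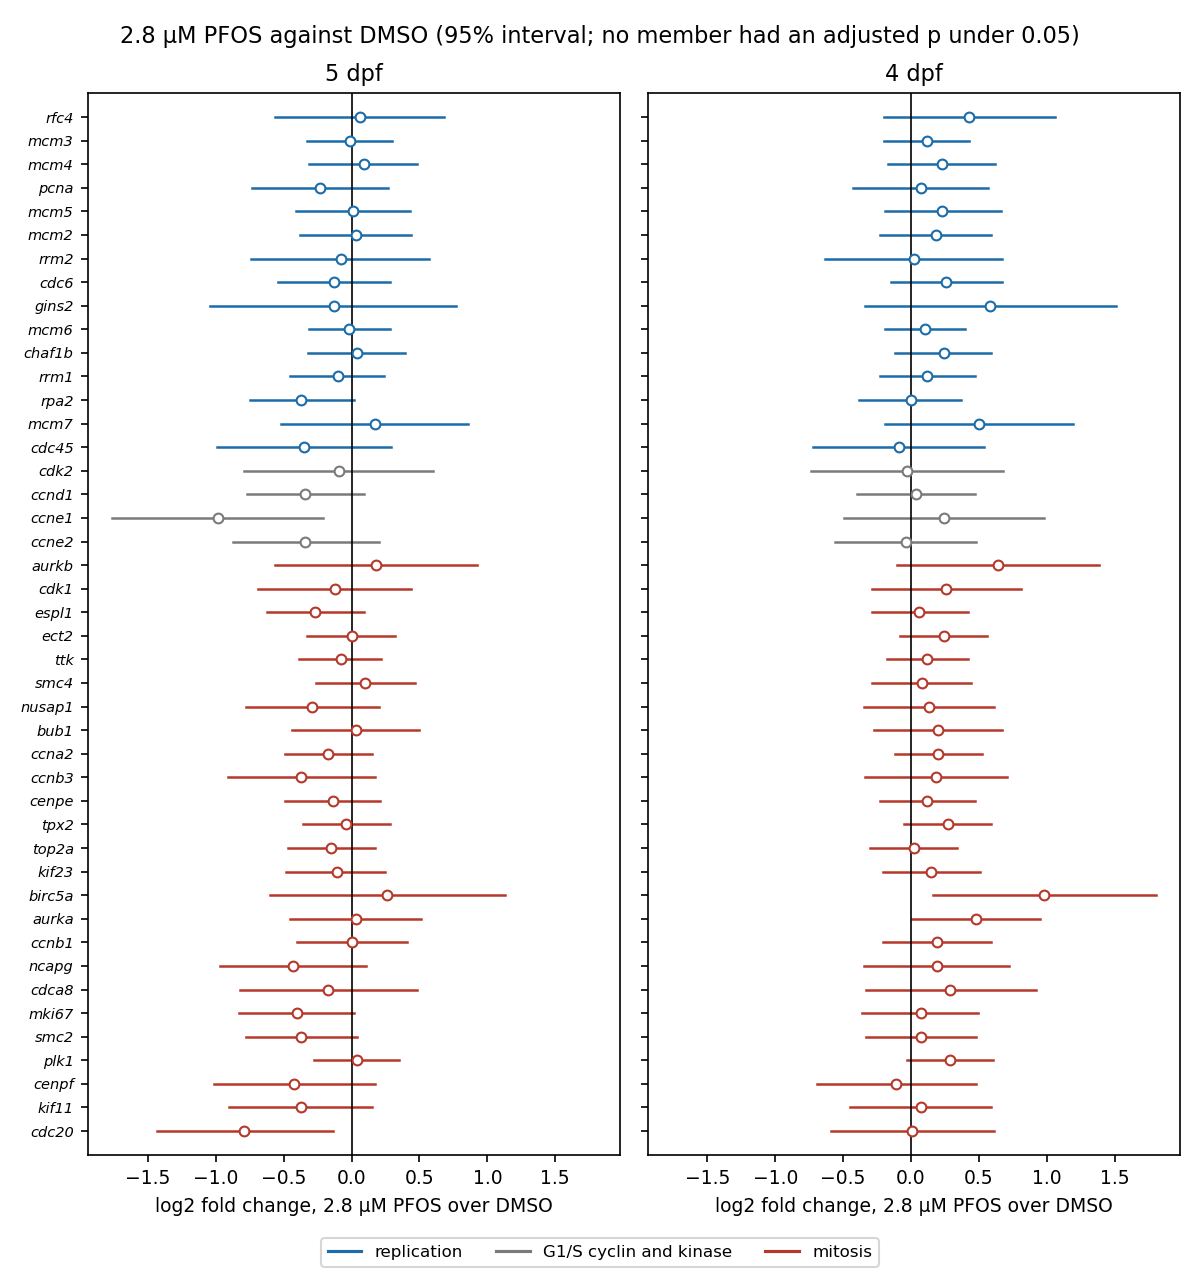
Log2 fold change of each member at 2.8 µM PFOS over DMSO with its 95% interval, at 5 dpf (left) and 4 dpf (right), for replication (blue), G1/S (grey) and mitosis (red) members; open points mark that none had an adjusted p under 0.05. Most intervals cross 0 at both ages, and the values furthest from 0 are ccne1 at -0.98 and cdc20 at -0.79 at 5 dpf and birc5a at 0.98 at 4 dpf.

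Reads shared between genes limit some members. Another annotated gene overlaps 19 of the 44 members, 13 of them on the opposite strand, and the sources used here do not say whether counting took account of strand. Counts of smc4 were fractional in 87.5% of libraries, so its values, like those of mcm7, are uncertain.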

How the data were processed

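RNA of 48 pools of zebrafish heads was sequenced. Per the submitters' processing notes, STAR 2.5.3a and Partek 8.0.19.0428 were used with GRCz11. The authors made and deposited estimated counts per gene, 81.2% of them whole within 0.01, and a table of log2 expression values after quantile normalization, which was used only in the limma-trend alternative. Counts were rounded, genes were kept by filterByExpr (20021 of 25377, holding at least 99.93% of counts), and libraries were scaled by TMM (factors 0.538 to 1.43). edgeR 4.0.16 in R 4.3.3 fitted 8 group means to all 48 libraries with glmQLFit, and contrasts were tested with glmQLFTest, two-sided, and p-values were adjusted over all tested genes (Benjamini-Hochberg). The SE is the size of the log2 fold change divided by the square root of F. Levels are CPM on TMM-scaled totals, or log2 CPM with a prior count of 2. Class levels are means over members, given without a test. Counts over a list are read against the share over all genes.

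Named genes are 12 anchors (pcna, mcm2, mcm5, rrm2, ccnd1, ccne2, ccna2, cdk1, ccnb1, mki67, top2a, plk1), the members with the smallest p in each class and comparison, called members by size, and, from other lists, up to 4 called genes per direction, or the smallest p. A further part of the rule, genes most like pcna and cdk1, is given in the closing section. Members and lists were chosen with earlier results of these data known. Coordinates are those of the deposited table. The test was also run on simulated counts with known changes, drawn independently for each gene and library. Shifts of many genes together within a library were not simulated, and the outcome is not used here. Alternatives were DESeq2 1.42.0, limma 3.58.1, other scalings, filters and prior counts, fits on just the compared groups, a block for the replicate letter, and leaving out each library or the 3 with low correlations.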

Additional observations from a re-analysis of the deposited data

Results flagged for a closer look

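For the 12 anchor genes and the levels of the replication and mitosis classes, 112 groups of 6 pools were examined for a highest or lowest pool far from the others, and 7 were found in 5 libraries, where chance gives about 5% of groups. The measure is the gap to the nearest pool divided by the range of the group, and each of the 7 exceeded Dixon's 95% critical value. In DMSO at 4 dpf, replicate I was highest for pcna (ratio 0.895; 6.66 log2 CPM, nearest pool 6.03) and for rrm2 (0.644; 5.31, nearest 4.76), and replicate G was lowest for ccnb1 (0.693; 4.46, nearest 5.01). At 2.8 µM at 4 dpf replicate G was lowest for mcm2 (0.638; 7.80, nearest 8.23). At 1.57 µM at 5 dpf replicate D, 1 of the 3 libraries with low correlations, was highest for rrm2 (0.664; 6.58, nearest 4.93) and cdk1 (0.757; 3.27, nearest 1.76), and replicate E was highest for plk1 (0.643; 5.13, nearest 4.59).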

How the results depend on the processing

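The number of members called was 13 in DMSO, 19, 23 and 25 at 0.88, 1.57 and 2.8 µM and 31 averaged for 5 against 4 dpf, and 0 in every PFOS comparison, both trends and the age difference. Apart from leaving out single libraries, 1 alternative moved such a number by over 1.5 times: fitting only the groups compared gave 6 at 0.88 µM. Fits of this kind, all with fewer libraries, called 16, 20 and 24 mitosis members in DMSO and at 1.57 and 2.8 µM. The cause of the difference at 0.88 µM was not tested. Leaving out 1 library gave 7 to 14 members in DMSO, 14 to 21, 17 to 25 and 21 to 27 at 0.88, 1.57 and 2.8 µM, 31 to 33 averaged and 0 throughout in each PFOS comparison, trend and the age difference; the 7 came without replicate D of DMSO at 4 dpf, and the cause was not tested. Leaving out the 3 libraries with low correlations gave 17, 18, 21, 26 and 33. Shares of all genes called under the alternatives are not given here, so these counts do not show whether changes were particular to the members. No called value changed sign in any setting. Of 968 called age values under other settings 42 lost their call, and of 2448 with 1 library left out 123 did. Averaged over concentrations, mcm4 and rpa2 lost their call in some settings, while rrm1, ccne1, aurkb and mcm7 gained one in others. The largest move of the median of all genes under other scalings was from 0.01 to -0.05 log2 units. It came with upper quartile scaling for 5 against 4 dpf at 1.57 µM.

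Replicate letters, which the labels do not explain, were not treated as pairs. Between concentrations of 1 age, 49 same-letter pairs correlated at -0.64 to 0.75 (median 0.09), and 23 were over 0.1. For 383 pairs with other letters the range was -0.80 to 0.79 (median -0.01), and 165 were over 0.1. With ranges this wide the values cannot decide whether pools of the same letter shared a clutch or batch. With the letter as a replicate block 17, 17, 18 and 22 members were called in DMSO and at 0.88, 1.57 and 2.8 µM, 30 averaged and 0 in each PFOS comparison. The planned averaged fit on only the groups compared is the same as the main one, and a planned search of promoters for motifs was not run. Depth limits the members with the fewest counts, gins2, ccne1 and birc5a (means of 11, 17.2 and 23.9 per library), followed by ccnb3, cdca8, rpa2, cdc45 and cdc20 (39.6 to 64.6); of these 8 all but gins2 and ccne1 are called averaged over concentrations.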

Other observations

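Across all 48 libraries and 14008 genes, log2 CPM was taken as the deviation from the mean of each group. The genes that then followed pcna most closely were cct7, uqcrc2b, ddx39aa, ntd5 and rrm2, with Pearson correlations of 0.93, 0.92, 0.91, 0.91 and 0.89. For cdk1 they were yipf6, cdk2, eif3m, fth1a and elob, at 0.83, 0.82, 0.81, 0.80 and 0.80. Without the 3 libraries with low correlations no gene exceeded 0.65 for cdk1. For pcna the closest genes were then eef1g, cct7, ddx39aa, uqcrc2b and serinc2, at 0.91, 0.89, 0.89, 0.88 and 0.87. The member rrm2 was no longer among them. These values are a description: removing the group means takes out age and concentration, but not other differences between libraries.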
